A study of Mus musculus with 25 samples.

Results

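The genes of the CatSper channel complex and of 2 further sperm ion channels were followed across a sperm RNA data set of 5 conditions. The 10 members were taken by gene symbol from the 24358 genes of the deposited table, and every one of them was listed with an accepted estimate in each condition. They are the 4 pore subunits Catsper1, Catsper2, Catsper3 and Catsper4, the 4 auxiliary subunits Catsperb, Catsperd, Catsperg1 and Catsperg2, the potassium channel gene Kcnu1 and the proton channel gene Hvcn1. The sperm came from the cauda epididymis of mice aged 14 weeks by the labels, and their RNA was read by all-RNA-seq, a protocol with which RNAs are sequenced whatever their ends. C57.CTL.F1 and FVB.CTL.F1 are first generation males of C57BL/6J and FVB/N whose mothers received the corn oil vehicle, and C57.D300.F1 and FVB.D300.F1 are those whose mothers received 300 mg/kg/day of the plasticizer DEHP by mouth from embryonic day 9 to 19. C57.D300.F2 holds sons of exposed C57BL/6J F1 males and unexposed females, and no F2 control was analysed here. Each condition held 5 libraries. The 10 C57BL/6J F1 libraries are older ones re-analysed for this series and the other 15 were newly made, so that strain or generation and the making of the libraries cannot be told apart. For each gene the table gives 1 estimated count per condition and none per library, so that no comparison could be checked against replicates and no p is printed. In what follows the conditions are called the C57BL/6J controls, the exposed C57BL/6J males, the F2 males, the FVB/N controls and the exposed FVB/N males.

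CatSper is a calcium channel of the sperm tail. It opens at alkaline intracellular pH, and the calcium that enters through it drives hyperactivated swimming. Its pore is built from 4 different subunits, and the auxiliary subunits surround the pore, most of them with large extracellular parts. Kcnu1 encodes Slo3, the alkalinization-activated potassium channel that sets the membrane potential of sperm, and Hvcn1 encodes Hv1, a voltage-gated proton channel that is known from human sperm and also from phagocytes and B cells. Most of these genes are transcribed in spermatids, and mature sperm, which are transcriptionally silent, carry remnants of such RNA.

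The promoters of Catsper2, the member with the highest counts, and of the 3 auxiliary subunits that had a RefSeq window are shown to place these loci, although nothing in the data measures the promoters themselves. Windows from RefSeq on GRCm38.p6 were found for 6 of the 10 members, and the 250 bases before the start site were searched on both strands for the CRE (TGACGTCA), the CRE half-site (TGACG, which also lies inside the CRE), the X-box half-site (GTTNCCATG), the CCAAT box (CCAAT), the TATA box (TATAAA) and the GC box (GGGCGG). The motifs were chosen with the sequences in view. The strings below run 5′ to 3′ on the strand of the gene, and capitals mark a match to any of these motifs on either strand. The first string is the 26 bases from 89 to 64 before the start of Catsper2 (chr2:121413856-121413881, minus strand). The other strings are the 250 bases before the start of Catsperb (chr12:101404423-101404672, plus strand), of Catsperd (chr17:56627893-56628142, plus strand) and of Catsperg1 (chr7:29214034-29214283, minus strand).
Catsper2: gccgATTGGctgCGTCAcgcagcgtc
Catsperb: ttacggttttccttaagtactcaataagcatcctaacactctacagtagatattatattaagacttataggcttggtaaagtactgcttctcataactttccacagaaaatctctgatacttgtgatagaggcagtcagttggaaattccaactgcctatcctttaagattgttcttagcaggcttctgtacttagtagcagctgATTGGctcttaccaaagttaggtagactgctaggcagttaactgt
Catsperd: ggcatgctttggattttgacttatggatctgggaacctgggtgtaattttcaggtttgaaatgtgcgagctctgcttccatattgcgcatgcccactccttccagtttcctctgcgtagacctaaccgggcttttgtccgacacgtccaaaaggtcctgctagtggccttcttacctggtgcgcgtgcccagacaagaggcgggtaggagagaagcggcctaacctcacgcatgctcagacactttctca
Catsperg1: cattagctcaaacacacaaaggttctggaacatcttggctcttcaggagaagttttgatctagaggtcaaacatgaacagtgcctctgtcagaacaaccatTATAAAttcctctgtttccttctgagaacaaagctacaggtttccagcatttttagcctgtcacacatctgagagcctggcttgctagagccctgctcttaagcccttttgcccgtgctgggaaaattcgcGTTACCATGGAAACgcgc
The Catsper2 window was 74.8% G or C, against a median of 52.4% and a 90th percentile of 69.2% over all 32851 windows, and those of Catsperb, Catsperd and Catsperg1 were 38.0%, 52.8% and 46.0%. It held 2 CCAAT boxes, 1 CRE half-site and 3 GC boxes, of which a pair overlapped. A CCAAT box was found in 33.8% of all windows, a GC box in 32.7% and a CRE half-site in 17.8%. The Catsperg1 window held X-box half-sites on both strands, 1 from 18 to 10 and 1 from 13 to 5 bases before the start, which overlap and together run from 18 to 5. Such a half-site was found in 1.56% of all windows. The same window held a TATA box farther upstream (12.4% of all). Catsperb held 1 CCAAT box, the windows of Catsper3, Catsper4 and Catsperd held none of the 6 motifs, and the full CRE, present in 1.55% of all windows, was in none of the 6. Catsper2 lies head to head with Pdia3, a protein disulfide isomerase gene on the opposite strand that begins at chr2:121413775, and both annotations overlap by 18 bases (GENCODE M21). A match of letters is a description of the window and does not show that a factor binds there.

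The levels of the channel RNAs were low, and 1 gene held much of the total. Of all estimated counts, the 8 CatSper genes made up 105 per 1000000 in the C57BL/6J controls, 114 in the exposed C57BL/6J males, 72.9 in the F2 males, 43.0 in the FVB/N controls and 49.6 in the exposed FVB/N males. In counts per kilobase of annotated exon and per 1000000 counts, the scale on which genes can be compared, Catsper2 was at the top of the 10 members in every condition, with 11.6, 12.5, 8.36, 7.09 and 7.57 in that order of conditions. The next gene in the C57BL/6J controls was Catsperb at 3.18 on this scale, followed by Catsperd (2.95), Catsperg1 (2.58), Kcnu1 (1.86), Catsper4 (1.60), Hvcn1 (1.46), Catsperg2 (1.27), Catsper1 (0.970) and Catsper3 (0.787). Below Catsper2, no neighbours in the order of the C57BL/6J controls or of the exposed C57BL/6J males differed by more than the model SD of their difference. The order of neighbours is thus not settled there, and genes farther apart were not compared in this way. The model SD is the square root of the variance that the authors' program Cuffdiff gave for each count. It is a fitted spread and not an SD between libraries. In the FVB/N controls the gene after Catsper2 was Hvcn1 at 2.17 on the same scale, and Catsper1 was the lowest at 0.171.

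**Figure D1:**
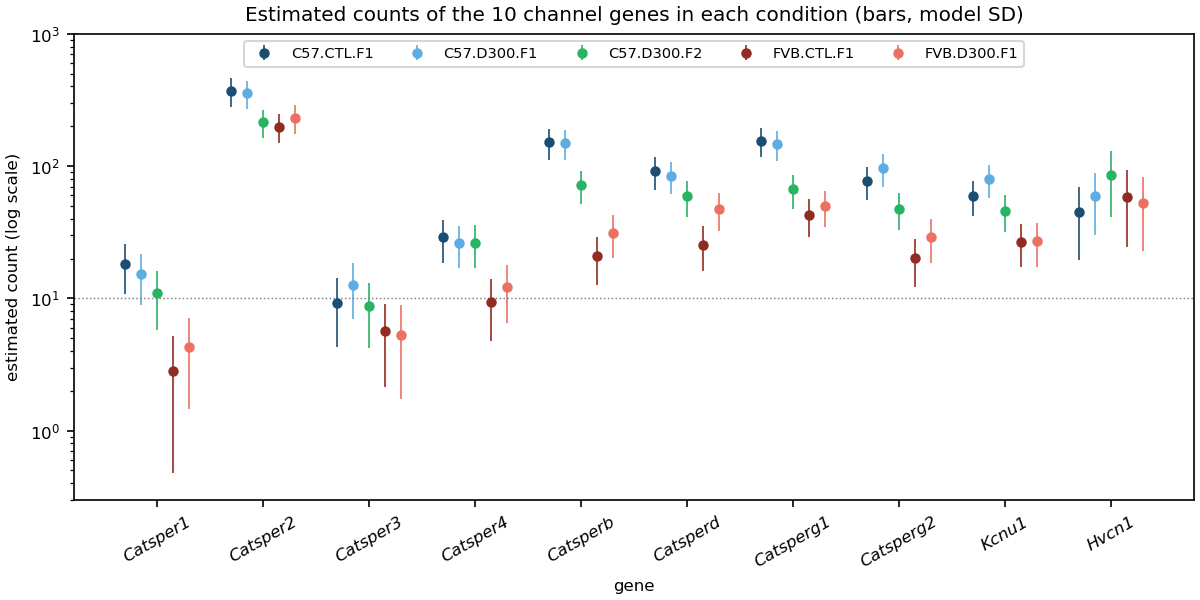
Estimated count of each of the 10 channel genes (y axis, log scale) in the 5 conditions (colours), with the model SD as bars and a dotted line at 10 counts. Apart from Catsper2, the CatSper genes and Kcnu1 lie lowest in the FVB/N conditions, Catsper2 has 198 or more counts in all conditions, and Hvcn1 is highest in C57.D300.F2 at 85.1.

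Among the pore subunits, Catsper1 (chr19:5335741-5344280), which carries a histidine-rich tail thought to sense pH, had estimated counts of 18.3 ± 7.55 (model SD) in the C57BL/6J controls, 15.3 ± 6.40 in the exposed C57BL/6J males, 10.9 ± 5.10 in the F2 males, 2.84 ± 2.36 in the FVB/N controls and 4.29 ± 2.83 in the exposed FVB/N males. Its FVB/N values were at or near the detection floor of 3 counts. Catsper2 (chr2:121392631-121413792), whose loss in humans accompanies male infertility with deafness, had 369.8 ± 89.2, 357 ± 85.7, 214 ± 51.0, 198 ± 48.8 and 231 ± 56.0 counts in the same order. Its counts were near one another in the F2 males and both FVB/N conditions and higher in both C57BL/6J F1 conditions. Catsper4 (chr4:134211970-134227383) had 28.9 ± 10.4, 26.1 ± 9.26, 26.4 ± 9.57, 9.41 ± 4.67 and 12.2 ± 5.74 counts, so that its F2 value was like those of the C57BL/6J F1 conditions and only the FVB/N values were lower. Catsper3 (chr13:55784568-55808998) had between 5.33 and 12.7 counts and reached 10 counts only in the exposed C57BL/6J males. The coding genes of the pore are separate loci on 4 chromosomes, and RNA of each was present above 3 counts in every C57BL/6J condition.

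Among the auxiliary subunits, Catsperb (chr12:101404653-101626009), which encodes CatSperβ, had 151 ± 39.1 counts in the C57BL/6J controls, 149.6 ± 37.9 in the exposed C57BL/6J males, 71.7 ± 20.2 in the F2 males, 20.9 ± 8.26 in the FVB/N controls and 31.4 ± 11.3 in the exposed FVB/N males. Catsperg1 (chr7:29181321-29214035), which encodes a CatSperγ, had 156 ± 39.5, 146 ± 37.1, 66.7 ± 19.3, 42.6 ± 13.7 and 49.9 ± 15.4 counts. The estimates of both genes had the same order, with C57BL/6J F1 above F2 and F2 above FVB/N, and the step to FVB/N was larger for Catsperb. For Catsperg1 the FVB/N controls were 24.1 counts lower than the F2 males, with a model SD of the difference of 23.7. The exposed FVB/N males were 16.8 counts lower, within the model SD of 24.7, so that this step is not settled. Catsperd (chr17:56628143-56664456), which encodes CatSperδ and is needed for a stable channel, had 91.2 ± 25.3, 84.8 ± 23.3, 59.3 ± 17.9, 25.5 ± 9.43 and 47.4 ± 15.1 counts. Catsperg2 (chr7:29697219-29727032), the second gene for a CatSperγ, had 76.7 ± 21.4, 95.9 ± 26.4, 47.5 ± 14.7, 20.1 ± 7.81 and 29.0 ± 10.6 counts. Catsperg1 and Catsperg2 are close paralogs whose reads the counting could have split in part, and the count of Catsperg1 was 2.04, 1.52, 1.41, 2.12 and 1.72 times that of Catsperg2 over the 5 conditions.

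Of the other channels, Kcnu1 (chr8:25849623-25937939) had 59.9 ± 17.7 counts in the C57BL/6J controls, 80.0 ± 22.7 in the exposed C57BL/6J males, 45.8 ± 14.3 in the F2 males, 26.9 ± 9.64 in the FVB/N controls and 27.3 ± 9.92 in the exposed FVB/N males. Its values too were lowest in the FVB/N conditions. Hvcn1 (chr5:122206804-122242297) had 44.7 ± 25.2, 59.1 ± 28.8, 85.1 ± 43.8, 58.6 ± 34.1 and 53.0 ± 30.2 counts, and no FVB/N value lay below that of the C57BL/6J controls. The count of Hvcn1 was 0.746 and 0.739 times that of Kcnu1 in the C57BL/6J controls and the exposed C57BL/6J males, and 1.86, 2.18 and 1.94 times in the F2 males, the FVB/N controls and the exposed FVB/N males. The model's coefficient of variation was 0.488 to 0.582 for Hvcn1, above that of 89.2% to 92.8% of the genes with counts within 1.5-fold of its own, and 0.284 to 0.363 for Kcnu1.

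Prenatal DEHP was compared with vehicle within each strain, on log2 ratios with 1 added to each count. In C57BL/6J the members hardly differed between the exposed C57BL/6J males and the C57BL/6J controls. The median log2 ratio of the 8 CatSper genes was -0.08 (range -0.24 to 0.43), Kcnu1 was at 0.41 and Hvcn1 at 0.39. None of the 10 members differed by more than the model SD of its difference, and 0 of 10 passed 1 log2 unit, the threshold used here, which applies where a gene reaches 10 counts in either condition. Over all 16825 genes so tested, 1.09% were higher and 1.15% lower by at least that much. The counting error alone spans a wide range at this depth, since the 95% exact binomial interval of the Catsper1 log2 ratio ran from -1.35 to 0.81.

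In FVB/N no member passed the threshold between the exposed FVB/N males and the FVB/N controls. The median log2 ratio of the 8 CatSper genes was 0.40 (0.08 with the spermatid genes described below set to a median of 0), and 7 of 8 lay above 0, with Catsperd at 0.87, Catsperb at 0.57, Catsperg2 at 0.50 and Catsper3 at -0.07. Catsperd, at 47.4 against 25.5 counts, was the 1 member whose difference (21.9 counts) exceeded the model SD of the difference (17.8). Kcnu1 was at 0.02 and Hvcn1 at -0.14. None of the 8 members with at least 10 counts passed 1 log2 unit, and 2.16% of 16471 genes were higher and 0.619% lower by that much. The list of 30 spermatid genes had a median of 0.37 with 27 of 30 above 0, and the summed count of 11 markers of the epididymal epithelium was 42313 in the exposed FVB/N males against 206 in the FVB/N controls, with none of the 11 at 3 counts or fewer in the former. Their part in the CatSper values was not tested. The difference between both strains' log2 ratios had a median of 0.40 over the 8 CatSper genes, against 0.03 over all genes and 0.53 over the spermatid list, and it was -0.07 with the spermatid list set to 0. It was highest for Catsperd (0.97) and Catsper1 (0.70) and negative for Catsper3 (-0.49), Kcnu1 (-0.39) and Hvcn1 (-0.54). Catsper1 (4.29 and 2.84 counts in exposed and control FVB/N males) and Catsper3 (5.33 and 5.63) were under 10 counts in FVB/N. Both still enter the CatSper medians given here. With 1 value per condition the difference between both strains' log2 ratios could not be tested.

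In sperm of the F2 generation, a pair of auxiliary subunits, Catsperg1 and Catsperb, was lower past the threshold than in either C57BL/6J F1 condition, on the deposited scale. Against the C57BL/6J controls, the median log2 ratio of the 8 CatSper genes was -0.69, and all 8 were below 0. The median of the auxiliary subunits was -0.87 and that of the pore subunits -0.41. The groups overlapped, since the pore gene Catsper2 lay below the auxiliary genes Catsperd and Catsperg2. Catsperg1 was 2.34-fold lower (log2 ratio -1.22) and Catsperb 2.11-fold lower (-1.07), and these 2 of the 9 members with at least 10 counts passed the threshold. The background was 4.10% of 17114 genes higher and 10.2% lower. Catsper2 (-0.79), Catsperd (-0.61) and Catsperg2 (-0.68) differed by more than the model SD without passing 1 log2 unit. Catsper4 (-0.12) and Catsper3 (-0.08) were near the F1 level, and Kcnu1 was at -0.38. Hvcn1 was higher in F2 (0.91), by 40.4 counts with a model SD of the difference of 50.5.

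Against the exposed C57BL/6J males, the fathers' generation of the same exposed lineage, the median of the 8 CatSper genes in F2 was -0.62. Catsperg1 (-1.12), Catsperb (-1.05) and, on the edge, Catsperg2 (2.02-fold lower) passed the threshold, against 2.69% of 17133 genes higher and 8.35% lower. Kcnu1 was at -0.79, beyond its model SD, Catsper4 at 0.02 and Hvcn1 at 0.52. The 3 calls were lost with totals set equal, by which the median of all genes moved from -0.05 to 0.11, and also under upper quartile scaling. Against the C57BL/6J controls, equal totals left 0 members lower and 1, Hvcn1, higher, and upper quartile scaling left 1 lower, Catsperg1, and the same 1 higher.

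The largest differences were between the strains. In the FVB/N controls against the C57BL/6J controls the median log2 ratio of the 8 CatSper genes was -1.82, and 7 of the 9 members with at least 10 counts were lower past the threshold, against 7.50% of 17086 genes higher and 18.8% lower. Catsperb was 7.24-fold lower (-2.80), Catsperg2 3.81-fold (-1.88), Catsperg1 3.67-fold (-1.85), Catsperd 3.58-fold (-1.80), Catsper4 3.07-fold (-1.52) and Kcnu1 2.23-fold (-1.13), each by more than the model SD of the difference. Catsper1 was 6.44-fold lower, and since its value in the FVB/N controls was under 3 counts, the 95% exact binomial interval of its log2 ratio was wide, from -4.99 to -0.81. The members that did not pass were Catsper2, 1.86-fold lower (-0.90, beyond its model SD), and Hvcn1 at 0.38.

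Between the exposed conditions, the exposed FVB/N males against the exposed C57BL/6J males, the median was -1.32 and again 7 members were lower past the threshold, out of 10 tested, with 12.0% of 17377 genes higher and 19.9% lower. Catsperb was 4.76-fold lower (-2.22), Catsperg2 3.31-fold (-1.69), Kcnu1 2.93-fold (-1.52) and Catsperg1 2.92-fold (-1.53). Catsper1 (-1.62), Catsper3 (-1.12) and Catsper4 (-1.04) also passed, and Catsperd (-0.83), Catsper2 (-0.62) and Hvcn1 (-0.16) did not. With 10 added to each count in place of 1, the 3 low pore subunits no longer passed and 4 members remained past the threshold.

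The FVB/N conditions were also set against the F2 males, since these 3 conditions were the newly made libraries. In the FVB/N controls the median of the 8 CatSper genes was -1.19, and 5 members were lower past the threshold, namely Catsperb (-1.73), Catsper1 (-1.63), Catsper4 (-1.40), Catsperg2 (-1.20) and Catsperd (-1.19). The background was 4.20% of 16969 genes higher and 11.6% lower. In the exposed FVB/N males the median was -0.65, and 3 members were lower past the threshold, namely Catsperb (-1.17), Catsper1 (-1.16) and Catsper4 (-1.06), against 6.98% of 17122 genes higher and 10.6% lower. Catsper2 was level in both, at -0.11 and 0.11. Catsper1 had 2.84 and 4.29 counts against 10.9 in the F2 males. The 95% exact binomial intervals of its log2 ratios were -4.36 to 0.05 and -3.57 to 0.30. With 10 added to each count in place of 1, Catsperb alone remained past the threshold in the FVB/N controls and no member in the exposed FVB/N males. The exposure and generation differ in these comparisons together with the strain.

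**Figure D2:**
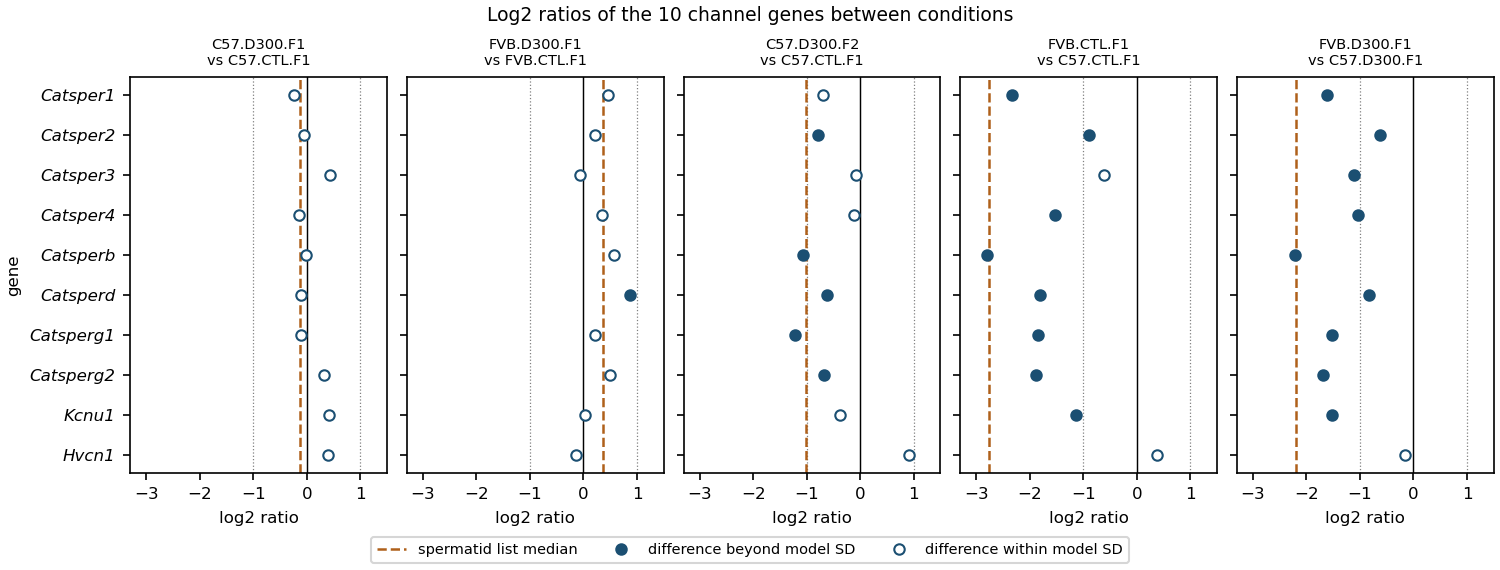
Log2 ratios (x axis) of the 10 channel genes (y axis) in 5 comparisons of conditions, with filled points where the difference exceeded its model SD, dotted lines at 1 log2 unit either way and a dashed line at the median of 30 spermatid genes. In the panel that compares both control conditions, Catsperb (-2.80) lies on the spermatid median (-2.77), and the other members lie to its right.

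These differences ran alongside a larger one in RNA of spermatids. The 30 spermatid genes, all of them above 3 counts in every condition, summed to 115091 counts or 1.34% of all counts in the C57BL/6J controls, 1.27% in the exposed C57BL/6J males, 0.589% in the F2 males, 0.132% in the FVB/N controls and 0.146% in the exposed FVB/N males. Their median log2 ratio was -1.01 in F2 and -2.77 in the FVB/N controls, each against the C57BL/6J controls, with all 30 past the threshold in the latter. Per 1000 counts of the spermatid list, the 8 CatSper genes had 7.83 counts in the C57BL/6J controls, 9.02 in the exposed C57BL/6J males, 12.4 in the F2 males, 32.5 in the FVB/N controls and 34.1 in the exposed FVB/N males. Without Catsper2 these values were 4.62, 5.39, 7.15, 12.7 and 14.9. The CatSper RNAs were therefore less in FVB/N per library and more per spermatid count. When the conditions were scaled so that the spermatid list had a median ratio of 0, the CatSper median in the FVB/N controls against the C57BL/6J controls turned from -1.82 to 0.90, with 0 members lower and 4 higher past the threshold, namely Catsper2, Catsper4, Kcnu1 and Hvcn1. Between the exposed conditions it turned from -1.32 to 0.82, also with 0 lower and 4 higher. In the F2 males it turned to 0.27 against the C57BL/6J controls and to 0.22 against the exposed C57BL/6J males, with 0 lower and Hvcn1 alone higher past the threshold in each. The median of all genes moved further under this scaling, to 2.71 between the controls and 2.19 between the exposed conditions. In the F2 males the median of all genes moved to 0.95 and 0.83. The members counted as higher thus lay within a wider shift, and a typical gene lay above the CatSper median. In bulk sperm RNA, fewer cells of a type and less RNA per cell cannot be told apart.

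Against the spermatid genes, the members fell into an order. Catsperb moved with them, since 15 of the 30 spermatid genes had a lower log2 ratio than Catsperb in the FVB/N controls against the C57BL/6J controls. Relative to the spermatid median, Catsper1 was at 0.45, Catsperg2 at 0.90, Catsperg1 at 0.92, Catsperd at 0.98 and Catsper4 at 1.25 on the log2 scale. Kcnu1 (1.65), Catsper2 (1.88) and Hvcn1 (3.16) lay above all 30 spermatid genes, the highest of which was at -1.28. The 95% exact binomial interval of the Kcnu1 log2 ratio, -1.86 to -0.47, covered that value. Those of Catsper2 (-1.16 to -0.65) and Hvcn1 (-0.19 to 0.98) did not. The interval of Catsper1 was wide, from -4.99 to -0.81, so that its place in the order is not settled. Catsper3 was at 2.15 from too few counts to be tested.

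**Figure D3:**
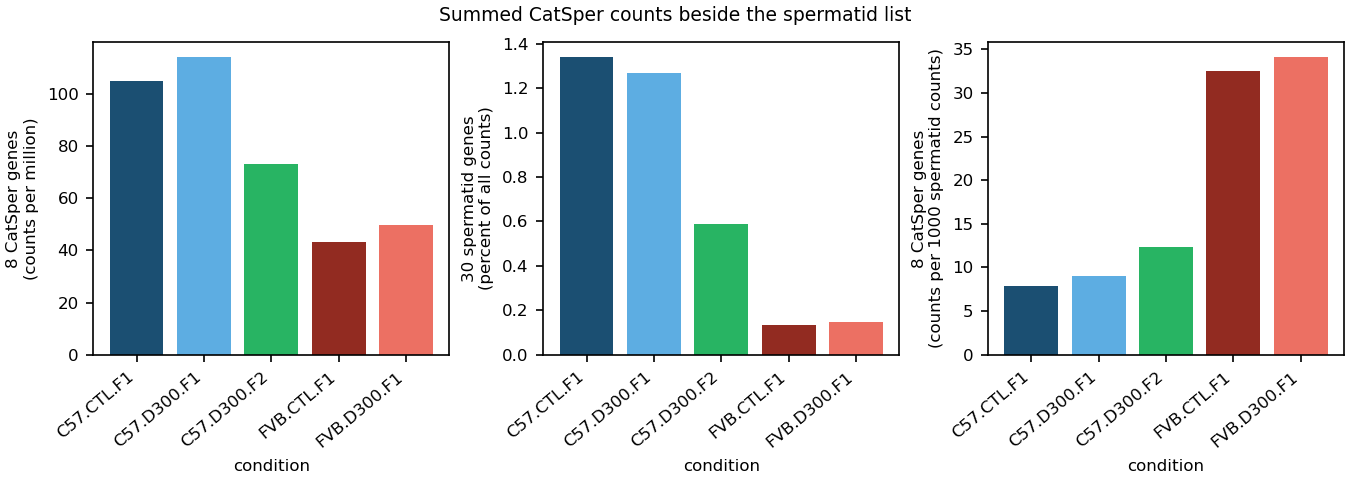
Bars for the 5 conditions (x axis) give the summed count of the 8 CatSper genes per 1000000 counts (left), the 30 spermatid genes in percent of all counts (middle) and the CatSper sum per 1000 spermatid counts (right). From C57.CTL.F1 to FVB.CTL.F1 the CatSper sum goes from 105 to 43.0 per 1000000, while the value per 1000 spermatid counts goes from 7.83 to 32.5.

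The make-up of the complex, which does not depend on the scaling between conditions, differed between the strains. Catsper2 made up 41.0% of the summed CatSper count in the C57BL/6J controls (95% exact binomial interval 37.8% to 44.4%), 40.2% in the exposed C57BL/6J males (37.0% to 43.6%) and 42.3% in the F2 males (38.0% to 46.8%). It made up 61.0% in the FVB/N controls (55.4% to 66.3%) and 56.3% in the exposed FVB/N males (51.3% to 61.1%). The 3 C57BL/6J values overlapped, as did both FVB/N values, and the intervals of the strains did not. Catsperb moved the other way, with 16.8% (14.4% to 19.4%), 16.9% (14.5% to 19.5%) and 14.2% (11.3% to 17.6%) in the C57BL/6J conditions and 6.41% (4.04% to 9.71%) and 7.64% (5.18% to 10.5%) in FVB/N. These intervals treat the rounded estimated counts as reads and cover counting error only, not the spread between libraries. The count of Pdia3, the gene whose start overlaps that of Catsper2, was 5827, 5978, 5771, 11612 and 11603 over the 5 conditions, so that it was higher in FVB/N where the count of Catsper2 was lower. In the annotation, Gm14001 on the same strand and Gm14000 on the opposite strand also overlap Catsper2. Gm24542 overlaps Catsperb on the same strand, and Gm17113 overlaps Catsperg1 and Tctn1 overlaps Hvcn1 on the opposite strand. The part of Pdia3 and of these genes in the values of the members they overlap was not tested.

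**Figure D4:**
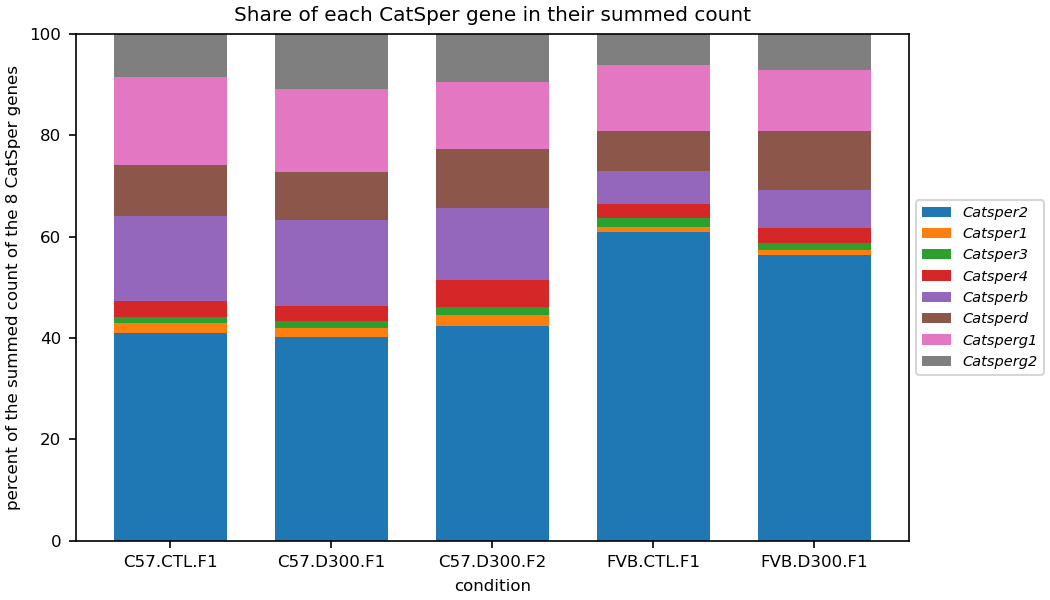
Share of each of the 8 CatSper genes in their summed estimated count (y axis, percent) in each condition (x axis). Catsper2 takes 41.0%, 40.2% and 42.3% in the C57BL/6J conditions and 61.0% and 56.3% in the FVB/N conditions, while Catsperb goes from 16.8% in C57.CTL.F1 to 6.41% in FVB.CTL.F1.

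Hvcn1 is also a gene of phagocytes and B cells, and 14 markers of leukocytes and phagocytes were set beside it. They summed to 6935 counts in the C57BL/6J controls, 7969 in the exposed C57BL/6J males, 4449 in the F2 males, 2131 in the FVB/N controls and 2498 in the exposed FVB/N males, and none was at 3 counts or fewer in any condition. In the FVB/N controls against the C57BL/6J controls their median log2 ratio was -1.52 (range -4.43 to 0.97), and 1 of 14 lay above Hvcn1 (0.38). In the F2 males against the C57BL/6J controls their median was -0.43, and again 1 of 14 lay above Hvcn1 (0.91). That marker was the neutrophil gene S100a8 in both comparisons, with 68.8 counts in the C57BL/6J controls, 263 in the F2 males and 135 in the FVB/N controls. S100a9, the partner of S100a8 in neutrophils, went the other way, with 49.6, 15.4 and 3.36 counts in these conditions. The B cell gene Ms4a1 (139, 165, 11.8, 8.43 and 7.60 counts over the 5 conditions) was low where Hvcn1 was not. The markers Cybb (472, 666, 849.9, 149 and 213 counts) and Cd3e (14.2, 32.8, 24.7, 11.6 and 12.6) differed from Ms4a1. In the F2 males against the C57BL/6J controls they were higher, as Hvcn1 was, at 0.85 and 0.76. In the FVB/N controls against the C57BL/6J controls they were lower, at -1.66 and -0.27. Hvcn1 also lay above the leukocyte median in the F2 males against the exposed C57BL/6J males (0.52 and -0.64) and between the exposed conditions (-0.16 and -1.49), with 2 of 14 markers above it in each. In the other 4 comparisons it lay nearer to that median. In the exposed FVB/N males against the F2 males it was at -0.68 and the median at -0.71, with 7 of 14 markers above it, and in the FVB/N controls against the F2 males it was at -0.53 and the median at -0.99, with 2 above. With DEHP it was at 0.39 and the median at 0.24 in C57BL/6J (4 of 14 above), and at -0.14 and 0.36 in FVB/N (12 above). The part of leukocyte RNA in the Hvcn1 values was not tested.

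Other genes of these channels and of sperm ion transport were examined in the same way. Of 31 further genes of sperm ion transport and its signalling, 30 were in the table, with Tex40, Als2cr11 and Gm16432 as the rows of Catsperz, C2cd6 and Catspere2. In the exposed C57BL/6J males against the C57BL/6J controls, 0 of the 29 genes with at least 10 counts were higher and 1 was lower past the threshold (1.09% and 1.15% of all genes). In the exposed FVB/N males against the FVB/N controls, 2 of 27 were higher and 0 lower (2.16% and 0.619% of all genes). In F2 against the C57BL/6J controls 1 of 29 was higher and 2 lower (4.10% and 10.2%), and in the FVB/N controls against the C57BL/6J controls 3 were higher and 16 lower (7.50% and 18.8%). The median log2 ratio in the last comparison was -1.10, against -0.03 over all genes.

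Of the 6 partners of the CatSper complex, 5 were lower past the threshold in the FVB/N controls against the C57BL/6J controls, where 18.8% of all genes were, and 4 of these, all but Trim69, also by more than the model SD. Tex40, the small subunit CatSperζ, had 114, 90.7, 67.2, 20.3 and 28.5 counts over the 5 conditions, and Efcab9, the EF-hand protein that pairs with it, had 28.6, 38.7, 19.3, 10.7 and 9.91. Als2cr11, which encodes the targeting subunit CatSperτ, had 146, 126, 79.6, 29.0 and 37.5 counts. These 3 showed the order of conditions seen for the main subunits, with FVB/N lowest. Gm16432, a gene for a CatSperε, was the partner that did not pass, with 45.9, 45.0, 39.0, 41.3 and 31.4 counts. Trim69, a ubiquitin ligase found with the complex, had 37.9, 33.4, 21.8, 4.47 and 17.4 counts and was 1 of the 2 genes higher past the threshold in the exposed FVB/N males against the FVB/N controls (log2 ratio 1.75, 95% exact binomial interval 0.47 to 4.12). Its model SD was far larger than that difference (12.9 counts with a model SD of 446) and than the difference between the strains' controls (33.4 counts lower with a model SD of 464), so that neither is settled.

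Lrrc52, the auxiliary subunit of the Slo3 channel in testis, had 14.8 counts in the C57BL/6J controls, 14.8 in the exposed C57BL/6J males, 10.4 in the F2 males, 1.14 in the FVB/N controls and 1.32 in the exposed FVB/N males. Its log2 ratio in the FVB/N controls against the C57BL/6J controls was -2.89, with an interval of -9.30 to -1.21 from so few counts, and that of the pore gene Kcnu1 was -1.13. The test of a difference between both genes was not possible with 1 value per condition. Lrrc26, a related subunit known from secretory epithelia, had 32.9, 32.7, 39.2, 38.3 and 52.7 counts.

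Of the genes of pH, bicarbonate and calcium handling, 21 had at least 10 counts in the comparison of both control conditions. In the FVB/N controls against the C57BL/6J controls, 10 of the 21 were lower and 3 higher past the threshold, and 8 did not pass. The shares over all genes were 18.8% lower and 7.50% higher. Of the 21, those lowest by log2 ratio were 4 genes best known from sperm. The soluble adenylyl cyclase Adcy10, which answers bicarbonate with cAMP, had 266, 304, 151, 41.9 and 52.4 counts over the 5 conditions, and Atp1a4, the sodium pump isoform of sperm, had 401, 347, 194, 67.7 and 96.8. Slc9c1, the sodium/proton exchanger of sperm, had 39.5, 40.9, 22.5, 6.77 and 10.5, and Plcz1, the phospholipase that triggers calcium waves in the egg, had 227, 256, 128, 26.4 and 46.1. Their log2 ratios in that comparison were -2.64, -2.55, -2.38 and -3.06, near the spermatid median and below those of the CatSper genes other than Catsperb. The more widely expressed bicarbonate cotransporter gene Slc4a4 (-1.66) and carbonic anhydrase gene Car2 (-1.13) were also lower past the threshold.

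The 3 genes higher past the threshold in the FVB/N controls against the C57BL/6J controls were Car4, Abhd2 and the cation channel gene Trpv4 (log2 ratio 1.03). Abhd2, the lipase through which progesterone releases the CatSper channel in human sperm, had 2143, 2139, 3175, 5125 and 7020 counts, and Atp2b4, a plasma membrane calcium pump, had 4754, 4675, 6237, 7302 and 7730. Abhd2 had a log2 ratio of 1.26 in that comparison, and Atp2b4, at 0.62, did not pass. Car4, a membrane-anchored carbonic anhydrase, had 31.0, 12.2, 74.3, 366 and 468 counts and was 11.8-fold higher in that comparison (log2 ratio 3.52). The 11 epididymal markers had a median of 0.25 there. Of these markers, 4 in the C57BL/6J controls and 3 in the FVB/N controls were at 3 counts or fewer. The part of epididymal RNA in the Car4 values was not tested. Car4 was also the 1 gene of the list lower past the threshold in the exposed C57BL/6J males against the C57BL/6J controls (-1.28). P2rx2, an ATP-gated cation channel, had 42.5, 30.9, 30.1, 35.3 and 82.7 counts and was the other gene higher past the threshold with DEHP in FVB/N (1.21), while it was at -0.26 between the strains' controls.

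**Figure D5:**
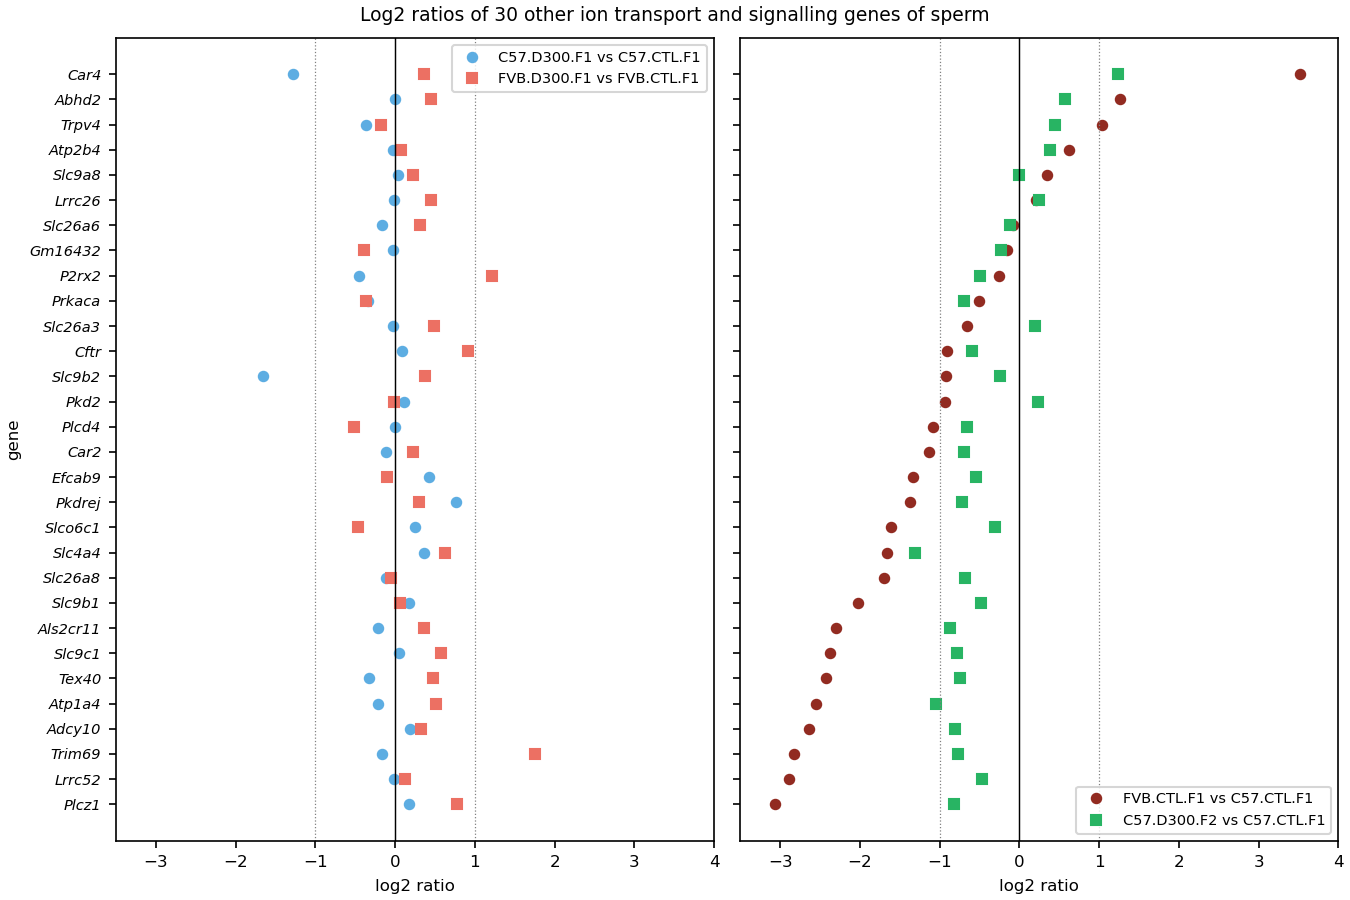
Log2 ratios (x axis) of 30 other ion transport and signalling genes (y axis, ordered by the strain comparison), for DEHP against vehicle in both strains (left) and for FVB.CTL.F1 and C57.D300.F2 against C57.CTL.F1 (right), with dotted lines at 1 log2 unit. The ratios with DEHP gather near 0, and those between strains run from -3.06 for Plcz1 to 3.52 for Car4.

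The profile of the complex over the 5 conditions was summarised from the 5 CatSper genes with at least 10 counts in every condition, as the median of their log2 values after centring. Relative to its mean, it was 0.72 in the C57BL/6J controls, 0.86 in the exposed C57BL/6J males, 0.04 in the F2 males, -1.11 in the FVB/N controls and -0.65 in the exposed FVB/N males. Among 8104 other genes with at least 100 counts throughout, the closest by root mean square difference were C3 (0.076), Dennd1a (0.076), Phf7 (0.087), B230208H11Rik (0.091) and Cep112 (0.11), and 107 genes lay within 0.25. C3, the complement component, had 18109, 21965, 12174, 5071 and 6791 counts, and Phf7, a chromatin reader of male germ cells, had 490.2, 489.8, 309, 132 and 164. Likeness over 5 points says how the values order and nothing of shared control. The members' own distances include genes that define the profile, Catsperg2 (0.084) and Catsper2 (0.46) among them, and so describe only the spread within the complex. Hvcn1, which is not one of these, lay at 0.86.

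For all conditions, the estimated counts summed to between 6921688 and 8602900, and 15883 to 16612 genes had at least 10 counts. RNA of other organs moved between the conditions too. The 8 liver markers took 2.35% and 2.15% of all counts in the C57BL/6J controls and the exposed C57BL/6J males and 0.00769% to 0.0619% in the newly made conditions, and the 8 seminal vesicle markers took 2.69% in the C57BL/6J controls and 0.00890% to 0.0283% elsewhere. The 8 meiotic markers summed to 326 counts in the C57BL/6J controls and 146 in the FVB/N controls, and the 6 smooth muscle markers to 18833 and 12424. The part of these RNAs in the values of the channel genes was not tested.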

How the data were processed

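Sperm RNA of 25 mouse libraries, 5 per condition, was analysed. The authors clipped the RA3 adapter, mapped reads to mm10 with TopHat and quantified genes with Cuffdiff; base calling used CASAVA 1.8.2 per the labels' processing notes. The options of Cuffdiff and the annotation release are not given in the sources used here. The deposited signal is 1 scaled estimated count per gene and condition with its model variance, not divided by length, and 10 columns were used for 24358 genes. How the libraries were combined is not given, so a count is treated as 1 value. Failed estimates (71 genes, no member) were left as missing.

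Log2 ratios used a pseudocount of 1, with a threshold of 1 log2 unit for genes of at least 10 counts and a detection floor of 3 counts. Exon lengths came from GENCODE M21 on GRCm38, the build of the files. The variance from read assignment was 0 for all genes. Genes named are the members, the fixed list of other ion transport genes, the markers, the 5 genes nearest in profile and the genes whose annotation overlaps a member. Pdia3 and single markers were named after their values were seen. Members and lists were chosen with earlier results of these data known. Alternatives were 4 scalings, other pseudocounts, thresholds and minimum counts. The ratio and scaling steps were tested on simulated data. Scripts ran under Python 3.11.15 (scipy 1.17.1, pandas 2.3.3, numpy 2.4.6, and for plots matplotlib 3.10.9).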

Additional observations from a re-analysis of the deposited data

How the results depend on the processing

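Leaving out a library could not be run, since the table has 1 value per condition. No paired analysis was possible because the columns carry 1 value per condition and no replicate. The scaling mattered most. With the spermatid list set to 0, the median of all genes moved to 2.71 in the FVB/N controls against the C57BL/6J controls, and every member that had been lower past the threshold in the comparisons of strains turned to a positive ratio, except, in the FVB/N controls, Catsperb (-0.08 against the C57BL/6J controls and -0.02 against the F2 males) and Catsper1 (-0.16 against the F2 males). The CatSper median turned to 0.90 (the FVB/N controls against the C57BL/6J controls), 0.82 (the exposed FVB/N males against the exposed C57BL/6J males), 0.52 (the FVB/N controls against the F2 males), 0.64 (the exposed FVB/N males against the F2 males), 0.27 (the F2 males against the C57BL/6J controls) and 0.22 (the F2 males against the exposed C57BL/6J males). The members past the threshold then numbered 4, 4, 3, 2, 1 and 1 in that order, all higher. The median of all genes was 2.71, 2.19, 1.74, 1.37, 0.95 and 0.83 in the same order, each above the CatSper median. By gene, in the FVB/N controls against the C57BL/6J controls this scaling gave log2 ratios of 0.08 for Catsper1, 1.09 for Catsper4, 0.92 for Catsperd, 0.89 for Catsperg1, 0.83 for Catsperg2 and 1.58 for Kcnu1. In the exposed FVB/N males against the exposed C57BL/6J males it gave 0.40 for Catsper1, 0.92 for Catsper3, 1.12 for Catsper4, 0.03 for Catsperb, 0.73 for Catsperg1, 0.55 for Catsperg2 and 0.72 for Kcnu1. Against the F2 males it gave, in the FVB/N controls, 0.26 for Catsper4, 0.53 for Catsperd and 0.51 for Catsperg2, and in the exposed FVB/N males, 0.05 for Catsper1, 0.27 for Catsper4 and 0.20 for Catsperb.

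Equal totals left 1 member past the threshold in F2 against the C57BL/6J controls and 0 in F2 against the exposed C57BL/6J males, and upper quartile scaling left 0 in the latter. A pseudocount of 10 left 1 and 1 in these comparisons, 4 in the exposed FVB/N males against the exposed C57BL/6J males with a median of -0.77, and 1 and 0 in the FVB/N controls and the exposed FVB/N males against the F2 males. A threshold of 2 log2 units left 0 and 0 for F2 against the C57BL/6J controls and the exposed C57BL/6J males, 2 and 1 between the strains, and 0 and 0 for FVB/N against the F2 males. The shares of all genes past it in either direction were 4.19%, 3.64%, 10.3%, 10.3%, 3.21% and 3.60% in that order. A threshold of 0.5 gave 7 and 8 for F2 and 3 for the exposed FVB/N males against the FVB/N controls. It gave 8 and 6 for FVB/N against the F2 males. At 0.5, 32.1% to 43.6% of all genes passed in either direction in the comparisons with the F2 males. In the exposed FVB/N males against the FVB/N controls 13.6% did. Requiring a difference beyond the model SD changed no count of members past the threshold, and leaving out Catsperg1 and Catsperg2 moved no median by 0.5 log2 units. The median difference between both strains' DEHP ratios ran from 0.13 to 0.44 under the other scalings and the pseudocounts tried and was -0.07 with the spermatid list set to 0. Of 480 single log2 ratios of members under these 6 alternatives, 425 stayed within the 95% binomial interval of their counts, 36 moved out of it and 19 changed sign after a call, with 35 of the former and all 19 of the latter under the spermatid scaling. The low counts of Catsper1 and Catsper3 limit what can be said of them.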
